A study of Mus musculus with 6 samples.

Results

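The genes of DNA methylation, of its removal and of Polycomb repressive complex 2 (PRC2) were followed in mouse small intestinal organoids treated with MMK-1. They are 10 rows of the 21397 genes in the deposited table, matched by symbol: Dnmt1, Dnmt3a, Dnmt3b and Uhrf1, the dioxygenase genes Tet1, Tet2 and Tet3, and the PRC2 core genes Ezh2, Eed and Suz12. All 10 were found, and 8 of them reached the mean level at which genes were tested.

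DNA methyltransferases place methyl groups on the cytosine of CpG dinucleotides. DNMT1, brought to newly replicated DNA by UHRF1, copies the existing pattern, and DNMT3A and DNMT3B can write a new one. TET enzymes oxidise methylcytosine, after which it can be lost by dilution or replaced through base excision repair. PRC2 methylates lysine 27 of histone H3 through its catalytic subunit EZH2 or EZH1, and needs EED and SUZ12 to do so. In the intestinal crypt, where stem and transit-amplifying cells divide and their progeny differentiate as they leave, these systems are known for maintaining progenitors and for shaping which genes become active on differentiation.

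The organoids came from small intestinal crypts of mice with the genotype Fpr2f/f. No Cre driver is named for these samples, and the floxed alleles were shared by every library. Organoids received 1 μmol/L MMK-1, a peptide agonist of formyl peptide receptor 2, or 0.1% DMSO as vehicle, and were collected on day 5, with 3 libraries per group and each sample holding organoids of 3 mice. A treatment label gives the MMK-1 dose as 1 mM, and the dose above is that of the protocol text. The study used mice of 8 to 12 weeks, matched for age and sex, without stating the sex. Its methods speak of independent experiments in general, but do not say for these libraries whether the 3 of a group came from separate cultures, so that p-values measure the spread between these libraries, which may be technical.

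Levels are FPKM, the fragments on a gene scaled by the length of the gene and by the total of the library. The libraries held from 35512739 to 37537463 fragments, and numbers of fragments below were computed from the FPKM values. MMK-1 replicate 3 stood apart from the other two MMK-1 libraries along the second principal component, which held 4.48% of the variance against 92.4% for the first. In the limma test on log2(FPKM + 1), 48.5% of the 10551 genes tested were higher with MMK-1 and 24.7% were lower when p-values, adjusted by Benjamini-Hochberg over all these genes, were called up to 0.05, so that 73.2% were called in either direction. In 76.8% of genes the control and MMK-1 libraries were fully apart. A call is therefore common in these libraries, and the size of a change says more than the call. Over all tested genes the log2 fold change had a median of 0.13, and scaling each library by its upper quartile instead moved it to -0.0036 and the calls from 5118 higher and 2606 lower to 3673 higher and 3905 lower.

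Of the 8 genes tested, 6 were higher with MMK-1, which were Dnmt1, Uhrf1, Dnmt3a, Ezh2, Eed and Suz12, and 0 were lower. Over all genes tested, 48.5% were higher and 24.7% lower. Tet2 and Tet3 did not pass the test. The libraries of the groups were fully apart for the same 6 genes, as they were for 76.8% of all genes tested. The median log2 fold change of the 8 was 0.43. None reached a fold change of 2 on the log2(FPKM + 1) scale, where 3.39% of all genes were higher and 3.65% lower at that fold with p, before adjustment, up to 0.05. The ratio of mean FPKM was 2.02 for Dnmt1, 2.0 for Uhrf1 and 2.02 for Suz12, since the added 1 makes fold changes smaller on the tested scale.

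Promoter sequence was searched for all 10 genes, because E2F factors control many genes of DNA replication and their binding motif can be searched for by its letters. RefSeq promoters of GRCm38.p6, which is the build mm10 named in the submitters' processing notes, were available for all 10 genes, as 15 windows from 250 bases before to 50 bases after a start site. The letters searched on both strands were TTTCCCGC, TTTCGCGC, TTTGCCGC and TTTGGCGC, which can share bases with their own reverse complement or with a GC box. They were present in the windows of 4 of the 10 genes, Dnmt1, Uhrf1, Ezh2 and Suz12, and in 2.26% of all 32851 promoters and 4.96% of the tested genes that have a promoter. The sequences of these 4 genes are shown because they hold a match, which is in capitals on the strand of the gene. Positions are counted from the start site, whose base is +1.
Dnmt1 (chr9:20952824-20952853, minus strand, -230 to -201 of the third start site): ggtttccgcgcGCGCGAAAaagccggggtc
Dnmt1 (chr9:20952574-20952601, minus strand, +23 to +50 of the third start site): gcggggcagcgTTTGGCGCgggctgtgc
Uhrf1 (chr17:56304088-56304187, plus strand, -225 to -126 of the second start site): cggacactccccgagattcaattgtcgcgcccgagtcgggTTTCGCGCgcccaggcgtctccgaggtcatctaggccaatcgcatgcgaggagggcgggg
Ezh2 (chr6:47595009-47595038, minus strand, -8 to +22): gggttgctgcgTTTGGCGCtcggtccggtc
Suz12 (chr11:79992856-79992946, plus strand, -250 to -160): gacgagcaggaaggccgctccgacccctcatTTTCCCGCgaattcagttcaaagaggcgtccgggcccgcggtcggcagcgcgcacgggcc

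The first of the Dnmt1 matches is the reverse complement of TTTCGCGC. A match in letters is a description of the window and says nothing of a factor bound there. The windows of Dnmt3a, Dnmt3b, Tet1, Tet2, Tet3 and Eed hold none of these letters. The same windows were also searched for CHR-type letters (TTTGAA and TTCGAA), for CCAAT and for the GC box GGGCGG. CHR-type letters were present in windows of Dnmt1 (first start site), Dnmt3b, Eed and Suz12, and in 14.2% of the promoters of tested genes. CCAAT was in 38.3% of those promoters and the GC box in 63.2%. CpG dinucleotides varied among the 15 windows from 2, in the window of the first Dnmt1 start site, to 57, in that of Tet2. There were 33 in each of the Dnmt1 and Uhrf1 windows above, 31 in that of Ezh2 and 41 in that of Suz12, 17 in those of Tet1 and Eed, and 12 in the other Uhrf1 window, where the median was 21 for the promoters of tested genes and 7 for all promoters.

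Dnmt1, the maintenance methyltransferase gene (chr9:20907209-20959888, minus strand), was higher in every MMK-1 library. Its level was 12.1, 11.6 and 10.8 FPKM in Control replicates 1 to 3, and 22.2, 22.6 and 25.1 FPKM in MMK-1 replicates 1 to 3. The highest control library lay far below the lowest MMK-1 library. The log2 fold change was 0.96 (SE 0.0596, limma adjusted p = 1.5e-06), and 4.02% of the genes tested had a larger one.

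Uhrf1, which encodes the protein that recognises hemimethylated CpG sites and recruits DNMT1 (chr17:56303321-56323486, plus strand), had nearly the same change. It was at 12.4, 10.5 and 12.3 FPKM in the control libraries and at 22.6, 23.0 and 24.9 FPKM in the MMK-1 libraries, again without overlap. This was a log2 fold change of 0.95 (SE 0.0695, limma adjusted p = 4e-06). Within a library the ratio of Uhrf1 to Dnmt1 was 1.02 ± 0.119 (SD, n = 3) in controls and 1.01 ± 0.0149 with MMK-1, and the libraries of the groups overlapped (exact two-sided permutation p = 0.8). Leaving out Control replicate 3 turned the sign of this small difference of -0.01 in log2 ratio to 0.07.

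Dnmt3a, a de novo methyltransferase gene (chr12:3806007-3914443, plus strand), changed far less. Its FPKM was 1.6, 1.61 and 1.56 in controls and 1.91, 2.01 and 2.25 with MMK-1. All MMK-1 libraries were above all control libraries. The log2 fold change of 0.24 (SE 0.0616, limma adjusted p = 0.0073) was 0.1 above the median of all genes, and it fell to 0.13 with an adjusted p of 0.059 when libraries were scaled by their upper quartile.

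Dnmt3b, the other de novo methyltransferase gene (chr2:153649450-153687730, plus strand), had a mean of 0.917 FPKM over the 6 libraries and was below the minimum for the test. Its fragments numbered 143, 174 and 136 in Control replicates 1 to 3 against 207, 235 and 273 in MMK-1 replicates 1 to 3, or 0.697 ± 0.0919 (SD, n = 3) and 1.14 ± 0.132 FPKM. The groups did not overlap. In a fit over every gene above 0, where 28.1% of 20676 genes were higher, its log2 fold change was 0.33 (SE 0.0647, limma adjusted p = 0.0084). A fit on fragments with limma-voom, added after the data were seen, gave 0.71 (adjusted p = 0.0021), a larger value because it adds no 1 to the level.

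Dnmt1 took a larger part of the methyltransferase RNA in MMK-1 libraries. Of the summed FPKM of Dnmt1, Dnmt3a and Dnmt3b, Dnmt1 made up 83.4% ± 0.71 (SD, n = 3) in controls and 88.0% ± 0.385 with MMK-1. The share of Dnmt3a was 11.5% ± 0.408 and 7.76% ± 0.147. The share of Dnmt3b was 5.04% ± 0.582 and 4.28% ± 0.238. The ratio of Dnmt3a to Dnmt3b was 2.43, 2.01 and 2.49 in controls and 1.89, 1.78 and 1.77 with MMK-1, a log2 difference of -0.34 without overlap, which was -0.1 when 1 was added to each FPKM. These shares rest on the gene lengths the authors divided by. With the exon lengths of GENCODE vM21, an alternative added after the data were seen, Dnmt3a made up 18.5% ± 0.601 in controls and 12.8% ± 0.219 with MMK-1, and Dnmt1 75.4% ± 0.886 and 81.8% ± 0.51.

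**Figure D1:**
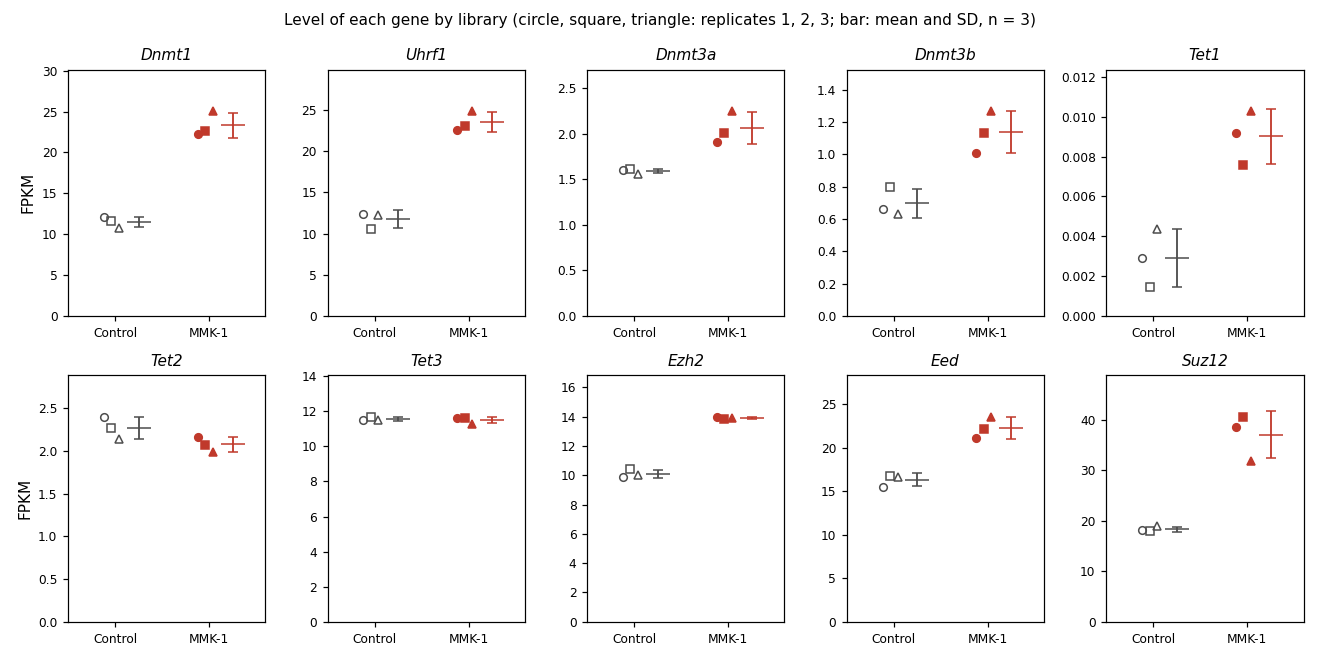
Level in FPKM (vertical axes, each starting at 0 and each with its own scale) of the 10 genes in the 3 Control libraries (open symbols) and the 3 MMK-1 libraries (filled symbols), with mean and SD. The groups are apart for 8 genes and overlap for Tet2 and Tet3, and MMK-1 replicate 3 (triangle) is the lowest of its group for Suz12, at 31.8 FPKM. Over all genes tested, the groups were apart for 76.8%.

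Tet2 and Tet3, the TET genes tested, did not follow the methyltransferase genes. Tet3, which carries most of the TET RNA here (chr6:83362373-83459084, minus strand), was at 11.5, 11.7 and 11.5 FPKM in the control libraries and at 11.6, 11.6 and 11.3 FPKM in the MMK-1 libraries. These values lie within a narrow band and the groups overlap. Tet3 had a log2 fold change of -0.01 (SE 0.0407, limma adjusted p = 0.91) and the exact two-sided permutation p was 0.8. With upper-quartile scaling, which lowers every value of the MMK-1 libraries against controls, it was -0.15 (adjusted p = 0.0074), past the threshold.

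Tet2 (chr3:133463679-133545139, minus strand) was at 2.4, 2.27 and 2.14 FPKM in the control libraries and at 2.16, 2.07 and 1.99 FPKM in the MMK-1 libraries. Only the lowest control library lay within the range of the MMK-1 libraries. The log2 fold change was -0.09 (SE 0.0576, limma adjusted p = 0.19), and it was -0.2 with upper-quartile scaling (adjusted p = 0.013) and -0.19 after a correction for GC content (adjusted p = 0.009).

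Tet1 (chr10:62804570-62908996, minus strand) was close to absent. Its fragments numbered 2, 1 and 3 in Control replicates 1 to 3 against 6, 5 and 7 in MMK-1 replicates 1 to 3, over a length of 18322 bases. Every MMK-1 library had more fragments than every control library, at levels near the 0.00445 FPKM that 3 fragments give. The ratio of pooled levels was 3.1, with a 95% exact (Clopper-Pearson) interval of 1.18 to 9.55 that covers counting error only. The limma adjusted p was 0.29 in the fit over every gene above 0 and 0.029 with limma-voom on fragments, so that its call depends on the scale.

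Tet3 made up 83.6% ± 0.774 (SD, n = 3) of the summed TET FPKM in controls and 84.7% ± 0.374 with MMK-1, and Tet2 made up 16.4% ± 0.777 and 15.2% ± 0.377. The TET sum was 13.8 ± 0.191 FPKM in controls and 13.6 ± 0.233 with MMK-1, while the sum of the 3 DNMT genes was 13.8 ± 0.68 and 26.5 ± 1.84 FPKM. The ratio of the TET sum to the DNMT sum was 0.97, 0.995 and 1.04 in controls and 0.549, 0.53 and 0.467 with MMK-1. At GENCODE exon lengths it was 0.762 ± 0.0279 (SD, n = 3) in controls and 0.405 ± 0.0342 with MMK-1. This ratio does not depend on the scaling between libraries, and the log2 difference was -0.96 without overlap. With 3 libraries against 3, an exact two-sided permutation test cannot go below p = 0.1, which this ratio reached (adjusted p = 0.16 over 8 ratios).

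All 3 PRC2 core genes were higher, Suz12 the most. Ezh2, the catalytic subunit gene (chr6:47530139-47595341, minus strand), was at 9.89, 10.36 and 10.01 FPKM in the control libraries and at 14.01, 13.77 and 13.88 FPKM in the MMK-1 libraries. The MMK-1 libraries agree closely and the groups are apart. The log2 fold change was 0.43 (SE 0.0417, limma adjusted p = 2.3e-05), and 23.8% of all genes tested had a larger one. It was 0.28 with upper-quartile scaling and 0.3 after a correction for GC content, and past the threshold in both.

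Eed, whose product binds trimethylated lysine 27 and stimulates the complex (chr7:89954654-89980983, minus strand), was at 15.5, 16.8 and 16.7 FPKM in the control libraries and at 21.1, 22.2 and 23.6 FPKM in the MMK-1 libraries. The groups did not overlap. Its log2 fold change equalled that of Ezh2 to the second decimal, at 0.43 (SE 0.0542, limma adjusted p = 0.00012), and was 0.28 with upper-quartile scaling.

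Suz12, the subunit gene whose product holds the core together and binds the accessory subunits (chr11:79993106-80034123, plus strand), was at 18.1, 17.9 and 18.9 FPKM in the control libraries and at 38.6, 40.6 and 31.8 FPKM in the MMK-1 libraries. MMK-1 replicate 3 was the lowest of its group, and still above every control library. The log2 fold change was 0.97 (SE 0.082, limma adjusted p = 9.2e-06), 1.07 without MMK-1 replicate 3 and 0.75 after a correction for GC content. The GC content of its exons was 41.6%, the lowest of the 10 genes. The part of GC content in the change was not tested further.

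The tested genes whose pattern over the 6 libraries was nearest to that of Suz12, by Euclidean distance of centred log2(FPKM + 1), were Alg6 at a distance of 0.0497, Spred1 at 0.0814 and B230219D22Rik at 0.085. The median distance of all tested genes was 1.09. Their log2 fold changes were 0.98, 1.03 and 0.97.

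**Figure D2:**
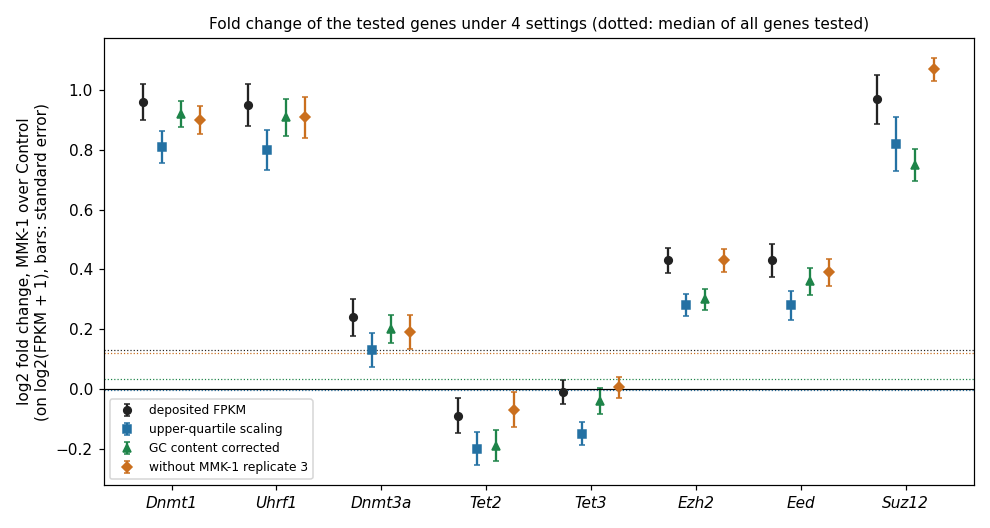
Log2 fold change of MMK-1 over Control on the log2(FPKM + 1) scale (vertical axis) for the 8 genes tested, as deposited and under 3 other settings, with standard errors as bars and the median of all genes tested under each setting as a dotted line. Dnmt1, Uhrf1 and Suz12 stand highest in every setting, Ezh2 and Eed follow, and Tet2 and Tet3 lie at or below the dotted lines.

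In controls the order of the levels was Suz12 at 18.3 ± 0.511 FPKM (SD, n = 3), Eed at 16.3 ± 0.712, then Uhrf1, Tet3 and Dnmt1 between 11.5 and 11.7, and Ezh2 at 10.1 ± 0.242. Uhrf1, Tet3 and Dnmt1 overlapped with their neighbours in this order, while Suz12, Eed and Ezh2 did not overlap with the genes next to them. Tet2 at 2.27 ± 0.128, Dnmt3a at 1.59 ± 0.0249, Dnmt3b and Tet1 followed, each apart from the next. With MMK-1, Suz12 was at 37.0 ± 4.62 FPKM, Uhrf1, Dnmt1 and Eed were between 22.3 and 23.5 and overlapped in order, and Ezh2 at 13.9 ± 0.121 stood above Tet3 at 11.5 ± 0.153. These orders rest on the gene lengths the authors divided by. For Ezh2 that length was 2462 bases where the exons of GENCODE vM21 cover 6678 bases, for Eed 2060 against 3828, and for Dnmt3a 24591 against 16642. With GENCODE lengths, an alternative added after the data were seen, several of these orders turn. Ezh2 would be below Tet3 in both groups, at 3.72 against 8.4 FPKM in controls and 5.12 against 8.37 FPKM with MMK-1. In controls Tet2 at 1.31 FPKM would be below Dnmt3a at 2.35, and Eed at 8.78 below Uhrf1 at 9.79 and Dnmt1 at 9.61. The ratio of a gene's FPKM between groups does not depend on the length, but the added 1 and the minimum level do. With GENCODE lengths Dnmt3b would have a mean of 1.04 FPKM and pass the minimum, and the difference in mean log2(FPKM + 1), without a test, would be 0.38 for Ezh2, 0.27 for Dnmt3a and 0.35 for Dnmt3b. In GENCODE, exons of genes on the opposite strand share 133 bases with Dnmt3a, 43 with Tet2, 174 with Ezh2, 261 with Eed and 178 with Suz12, and whether counting used strand is not given in the sources used here, so that reads of both strands cannot be told apart in these stretches.

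The genes that work with these enzymes were read from lists, and most of their tested members were also higher. The counts of each list stand beside the shares over all genes tested, of which 48.5% were higher and 24.7% lower. With upper-quartile scaling, 3673 of the 10551 genes tested were higher and 3905 lower. Of the 7 tested cofactors of DNA methylation, 6 were higher and 0 lower (median log2 fold change 0.73). Hells, the chromatin remodeller needed for methylation of repeats, was at 1.86, 1.96 and 1.82 FPKM in controls and 6.08, 5.91 and 4.73 FPKM with MMK-1, a log2 fold change of 1.18 (limma adjusted p = 2.9e-06), and its partner Cdca7 had 1.12 (adjusted p = 5e-07). After the correction for GC content the change of Hells was 0.81, where that of Dnmt1 was 0.92. Cdca7 is also on the list of stem cell markers.

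Of the 7 tested genes of the methyl-CpG-binding domain (MBD) family and other readers of methylated CpG, 6 were higher and 0 lower. Their median was 0.31 (4 higher with upper-quartile scaling). Mbd3, listed here as a gene of the MBD family, encodes a subunit of the NuRD complex. It was at 19.7 to 20.1 FPKM in controls and 43.7 to 47.8 FPKM with MMK-1 (log2 fold change 1.16, limma adjusted p = 9.3e-08). Zbtb33, which encodes the reader Kaiso, was at 3.57 to 3.95 FPKM in controls and at 10.7, 10.6 and 6.11 FPKM in MMK-1 replicates 1 to 3 (log2 fold change 1.04, limma adjusted p = 0.00054). Its log2 fold change was 0.73 after the correction for GC content. As with Suz12, MMK-1 replicate 3 had the lowest value of its group.

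Of the 13 tested genes of active demethylation and base excision, 10 were higher, 1 was lower and 2 did not pass, with a median of 0.28 (8 higher and 2 lower with upper-quartile scaling, and a median of 0.14). Tdg, whose product removes the bases that TET enzymes make, was at 13.6 to 14.9 FPKM in controls and 23.5 to 25.1 FPKM with MMK-1 (log2 fold change 0.73, limma adjusted p = 2.3e-06). Neil3, a DNA glycosylase gene, had 0.67, and 0.44 after the correction for GC content. Gadd45g fell by 0.20 on the log2 scale from 6.68 to 5.73 FPKM (limma adjusted p = 0.035). Tdg thus changed in libraries where Tet2 and Tet3 did not pass the test.

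The genes of the catalytic subunits of PRC2 changed in opposite directions. Ezh1, the paralog of Ezh2 known for non-dividing cells, was at 11.7, 12.7 and 11.8 FPKM in the control libraries and at 7.64, 7.92 and 8.36 FPKM in the MMK-1 libraries, a log2 fold change of -0.54 (SE 0.0521, limma adjusted p = 2.1e-05). The ratio of Ezh2 to Ezh1 was 0.844, 0.816 and 0.851 in controls and 1.83, 1.74 and 1.66 with MMK-1. Which paralog is higher with MMK-1 depends on the gene length, since with GENCODE exon lengths the ratio was 0.369 ± 0.00812 (SD, n = 3) in controls and 0.77 ± 0.0383 with MMK-1, below 1 in every library. The difference between groups does not depend on it. The log2 difference was 1.06 (exact two-sided permutation p = 0.1, the smallest possible).

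Of the 8 tested genes of PRC2 accessory subunits and Ezh1, 6 were higher and 2 lower, with a median of 0.49. Epop rose from 1.93, 2.72 and 1.86 FPKM to 8.77, 7.79 and 7.94 FPKM (log2 fold change 1.54, limma adjusted p = 1.9e-06), and Mtf2, which helps bring PRC2 to CpG islands, from 2.6 to 2.84 FPKM to 9.71, 8.62 and 5.68 FPKM (1.25, adjusted p = 8e-05). After the correction for GC content, Epop had 1.14 and Mtf2 0.9. Phf1, a relative of Mtf2, fell from 8.96 ± 0.285 (SD, n = 3) to 5.69 ± 0.698 FPKM (log2 fold change -0.58, limma adjusted p = 0.00013). Relatives among the accessory subunits therefore differed in direction. The histone-binding subunit genes Rbbp4 and Rbbp7 had log2 fold changes of 0.56 and 0.70, and Jarid2, an accessory subunit gene, 0.26 (limma adjusted p = 1.4e-05, 2e-06 and 0.0034).

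Of 21 tested genes of PRC1, the complex that ubiquitinates histone H2A, 16 were higher, 2 lower and 3 did not pass, with a median of 0.39 (13 higher and 4 lower with upper-quartile scaling). Rnf2, a catalytic subunit gene, was at 5.48 to 5.79 FPKM in controls and 14.3, 13.1 and 8.42 FPKM with MMK-1 (log2 fold change 0.92), and Cbx6 had 0.82. After the correction for GC content, Rnf2 had 0.62 and Cbx6 0.78. Cbx8 fell by 0.40 on the log2 scale (limma adjusted p = 0.00015). Pcgf1 fell by 0.13, with a limma adjusted p of 0.05 that lies at the threshold. With upper-quartile scaling the log2 fold change of Pcgf1 was -0.24 (limma adjusted p = 0.0033). All 5 tested genes of H3K27 demethylases and the BAP1 complex were higher (median 0.40), with Asxl1 at 0.50 and the demethylase gene Kdm6b at 0.49. Of 9 tested genes of H3K9 and H3K36 methyltransferases, 8 were higher and 0 lower (median 0.32, with 7 higher, 1 lower and a median of 0.18 under upper-quartile scaling), led by Suv39h2 at 0.81 and Suv39h1 at 0.73.

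The enzymes that make the methyl donor or affect 2-oxoglutarate, a cosubstrate of TET enzymes, were mixed, with 4 higher and 3 lower among 8 tested and a median of 0.21 (0.055 with upper-quartile scaling and 0.14 after a correction for GC content). Mat2a, which makes S-adenosylmethionine, was at 33.6 ± 0.735 FPKM (SD, n = 3) in controls and 49.5 ± 1.01 with MMK-1 (log2 fold change 0.54), and Idh3a had 0.47. Idh1, which makes 2-oxoglutarate in the cytosol, was at 193.0 ± 5.08 and 116.0 ± 2.4 FPKM (log2 fold change -0.73, limma adjusted p = 5.6e-07).

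**Figure D3:**
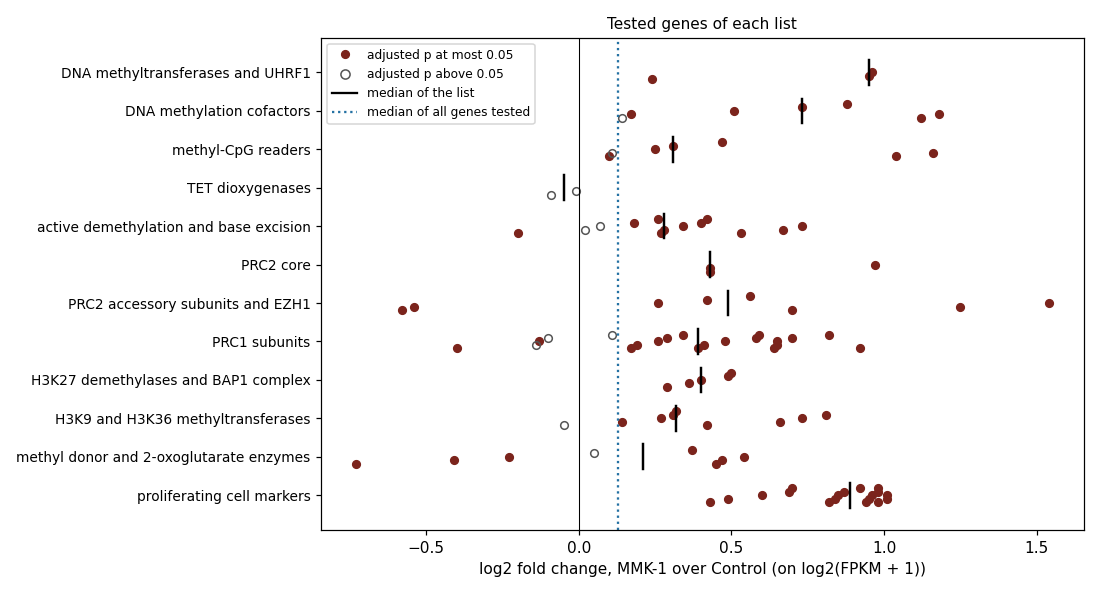
Log2 fold change of MMK-1 over Control on the log2(FPKM + 1) scale (horizontal axis) for each tested gene of the lists, filled where the limma adjusted p was at most 0.05, with a bar at each list's median. The medians of the 2 groups of PRC2 genes, at 0.43 and 0.49, and of the proliferation markers, at 0.89, lie right of the median of all genes tested at 0.13 (dotted), and that of the TET genes lies left of it at -0.047.

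Markers of dividing cells moved with these genes. All 18 proliferation markers were higher, with a median log2 fold change of 0.89 and summed levels of 333.0 to 336.0 FPKM in controls and 574.0 to 604.0 FPKM with MMK-1. The ratio of Dnmt1 to Mki67, a gene expressed in cycling cells, was 0.842, 0.847 and 0.8 in controls and 0.827, 0.816 and 0.888 with MMK-1. These overlapped (exact two-sided permutation p = 0.7), with a log2 difference of 0.02, so that Dnmt1 and Mki67 were higher by like amounts. Against Pcna, the replication clamp gene, Dnmt1 was higher, at 0.111 ± 0.00628 in controls (SD, n = 3) and 0.16 ± 0.00471 with MMK-1 (log2 difference 0.53, no overlap).

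Ezh2 had the reverse pattern. Its ratio to Mki67 was 0.69, 0.754 and 0.738 in controls and 0.521, 0.498 and 0.492 with MMK-1, a log2 difference of -0.53 without overlap. Its ratio to Pcna was 0.0972 ± 0.0022 (SD, n = 3) and 0.0954 ± 0.00564, with overlapping libraries (exact two-sided permutation p = 0.7). Mki67 itself had a log2 fold change of 0.94 and Pcna of 0.49 (limma adjusted p = 2.3e-07 and 1.7e-05). The part of cell division in the changes of Dnmt1, Uhrf1 and the PRC2 genes was not tested.

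**Figure D4:**
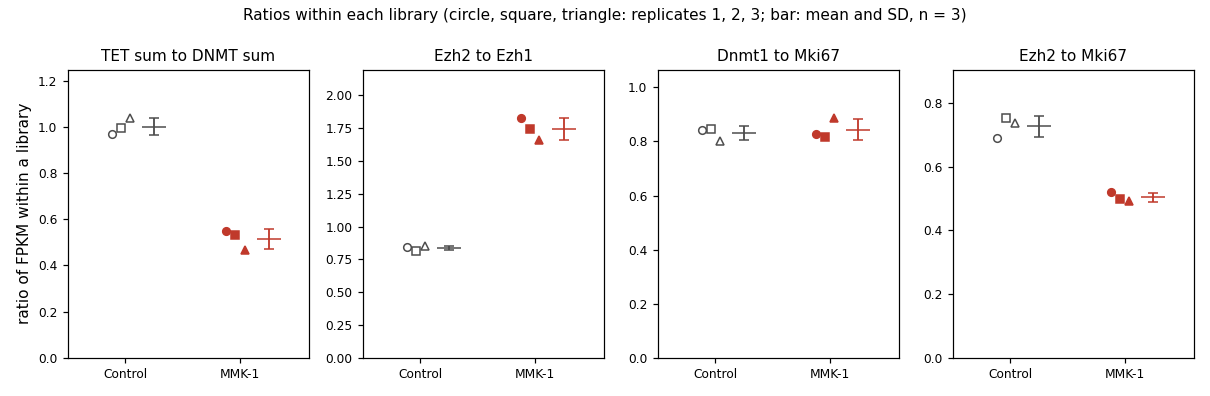
Ratios of FPKM within each library (vertical axes, each starting at 0) in the 3 Control and the 3 MMK-1 libraries, with mean and SD. The ratio of summed TET to summed DNMT genes goes from 1.0 to 0.516 and that of Ezh2 to Ezh1 from 0.837 to 1.74, Dnmt1 to Mki67 overlaps between groups, and Ezh2 to Mki67 is lower in every MMK-1 library.

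Markers of cell types differed between the groups as well. All 10 markers of small intestinal epithelium were present and tested, of which 4 were higher, 4 lower and 2 did not pass (median log2 fold change -0.028). With upper-quartile scaling 3 were higher and 6 lower (median -0.19). Their summed levels were 6400.0 to 6440.0 FPKM in controls and 4360.0 to 4680.0 FPKM with MMK-1. All 9 tested stem cell markers were higher (median log2 fold change 1.2) and all 7 tested Paneth cell markers were higher (1.8), while 11 of 12 enterocyte markers were lower (-1.7), their sum going from 9410.0 to 9500.0 FPKM in controls to 5070.0 to 5460.0 FPKM. Of the goblet cell markers 6 of 8 were higher and 2 lower (3 higher and 2 lower with upper-quartile scaling), of the enteroendocrine markers 7 of 9 were higher, and 0 of the 7 tuft cell markers reached the minimum level. In such bulk libraries a change in the number of cells of a type and a change in RNA per cell cannot be told apart.

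Non-epithelial markers were low. The 10 leukocyte markers in the table summed to 6.28 to 6.81 FPKM in controls and 2.49 to 3.32 FPKM with MMK-1. Both that were tested were lower, Itgam with a log2 fold change of -0.79 and Cd68 with -0.96 (limma adjusted p = 9.2e-06 and 0.00015), and 6 had at most 3 fragments in each library, among them Ptprc and Cd3e. The 10 stromal and endothelial markers summed to 4.82 to 5.38 and 3.52 to 5.16 FPKM, with Vim the only gene tested (log2 fold change -0.25, limma adjusted p = 0.049). The part of cell composition in the values of the methylation and PRC2 genes was not tested.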

How the data were processed

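RNA-seq libraries of small intestinal organoids, 3 Control and 3 MMK-1, were grouped by their titles. The authors deposited FPKM values, and the submitters' processing notes name HISAT2, HTSeq, DESeq2 and R 3.2.0 with the build mm10. The annotation is not given in the sources used here. From the FPKM, whole fragments per gene and library totals were computed, and 100% of genes came out whole within 0.02. Intervals and floors on fragments cover counting error only, and a count of 0 allows up to 3.

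Differences were tested with limma 3.58.1 in R 4.3.3 (trend, no block) on log2(FPKM + 1) over genes whose mean FPKM reached 1. Calls were made up to a p of 0.05, adjusted by Benjamini-Hochberg over all tested genes, or at a fold change of at least 2 with p of at most 0.05. The fit and the recovery of fragments were tested on simulated data. Ratios within a library were compared by exact two-sided permutation. Python 3.11.15 was used for the rest.

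The genes followed and the lists were chosen with earlier results of these data known. Named were all 10 genes, from each list the 2 largest rises and the 2 largest falls among called genes whose groups did not overlap, and Ezh1, Rbbp4, Rbbp7, Jarid2, Mki67, Pcna, Cdkn2a and Cdkn1c. For the gene with the largest change, the 3 nearest genes were added. A gene that this rule names is not reported here. Leukocyte, stromal and other genes of few fragments outside this rule were named after their values were seen. Alternatives covered scaling, pseudocount, filter, a replicate block, limma-voom on fragments, GC content, fold threshold and leaving out each library. Proteins were not used here.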

Additional observations from a re-analysis of the deposited data

How the results depend on the processing

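Dnmt1, Uhrf1, Ezh2, Eed and Suz12 kept their direction and their call in each of the 16 alternatives run for them, with log2 fold changes of 0.81 to 1.02, 0.8 to 1.0, 0.28 to 0.47, 0.28 to 0.46 and 0.75 to 1.07. Dnmt3a lost its call with upper-quartile scaling (adjusted p = 0.059). The count of genes of DNA methylation and PRC2 that were lower went from 0 to 2 (Tet2 and Tet3) with upper-quartile scaling (log2 fold changes -0.2 and -0.15) and with median-of-ratios scaling, and to 1 (Tet2) with the GC correction. Those past the fold threshold went from 0 to 3 in TPM, 2 with a pseudocount of 0.1, 3 with limma-voom, 4 with limma-voom over every gene above 0, 3 at a fold of 1.5, and 0 to 1 when single libraries were left out, the 1 being Suz12 without MMK-1 replicate 3.

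Over all genes, those higher at a fold of 2 went from 358 to 225 with upper-quartile scaling, 230 with median-of-ratios scaling, 558 in TPM, 676 with a pseudocount of 0.1, 215 with a mean FPKM of at least 5, 224 with the GC correction, 727 with limma-voom, and 1502 at a fold of 1.5, where 855 were lower. limma-voom over every gene above 0 gave 2022 higher and 1364 lower. The differences in ratio of Uhrf1 to Dnmt1 (-0.01), Dnmt1 to Mki67 (0.02) and Ezh2 to Pcna (-0.03), whose groups overlap, changed sign when a library was left out. The first ranged from -0.1 to 0.07 (0.07 without Control replicate 3 and 0.0011 without MMK-1 replicate 3), the second from -0.01 to 0.05 (-0.0028 and -0.01 without these), and the third from -0.07 to 0.01 (without MMK-1 replicate 3). The causes were not tested.

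With a replicate block, 5024 genes were higher and 2543 lower, and 6 of the 8 tested genes of DNA methylation and PRC2 were higher, as without it. Deviations of same-numbered libraries correlated at 0.03, -0.04 and 0.03, so the numbers do not show a pairing. Depth limits Tet1, with 1 to 7 fragments per library.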

Other observations

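Genes listed as silenced by DNA methylation or by PRC2 were read as well. Of 16 germline genes that rely on promoter methylation, 7 were in the table and 0 reached the level for a test, with 70 to 88 fragments in all in the control libraries and 52 to 99 in the MMK-1 libraries. Sycp3, a gene of the meiotic chromosome axis, was listed with 0, 0 and 3 fragments in Control replicates 1 to 3 against 8, 8 and 1 in MMK-1 replicates 1 to 3. Of the 17 developmental and cell cycle genes of the PRC2 list in the table, 4 were tested, with 1 higher, 2 lower and a median log2 fold change of -0.098. These 4 were not silent in the control libraries, where the lowest of them, Tbx3, had a mean of 17.6 FPKM. The 13 others were below the level for a test, so the values of the 4 do not describe silenced genes. Gata4, an intestinal transcription factor gene, was at 42.9 ± 1.61 (SD, n = 3) and 49.4 ± 2.57 FPKM (0.20, limma adjusted p = 0.0062, and 0.04 with an adjusted p of 0.38 under upper-quartile scaling). Cdkn2b, a cell cycle inhibitor gene, was at 38.9, 37.9 and 38.7 FPKM in controls and 15.6, 15.8 and 17.8 FPKM with MMK-1 (log2 fold change -1.18, limma adjusted p = 2.5e-07). Its neighbour Cdkn2a had at most 2 fragments in any library. Tbx3, a T-box factor gene, had a log2 fold change of -0.28.

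Imprinted genes have a single active allele that is set by DNA methylation. H19, a maternally expressed non-coding RNA gene named after its values were seen, had 0 fragments in every control library and 54, 68 and 74 in the MMK-1 libraries, at least 22.5-fold higher against a floor of 3 fragments per control library. Igf2, its paternally expressed neighbour, was at 2.65, 2.94 and 2.75 FPKM in controls and 0.82, 0.688 and 0.685 FPKM with MMK-1 (log2 fold change -1.13, limma adjusted p = 7.8e-07). The pair thus differed in direction. Of the 6 imprinted genes tested, 3 were higher, 1 was lower and 2 did not pass, where 48.5% of all genes tested were higher. Plagl1 had a log2 fold change of 1.1, with 6.72, 6.98 and 4.15 FPKM in MMK-1 replicates 1 to 3 against 1.85 to 2.4 FPKM in controls, Phlda2 had 0.82, and the cell cycle inhibitor gene Cdkn1c had 0.69 (limma adjusted p = 0.00014). Among genes below the level for a test, also named after their values were seen, Peg3 went from 34, 41 and 34 fragments to 167, 195 and 157, and Dlk1 had 0, 2 and 1 against 14, 13 and 11. Not all imprinted genes rose, since 7 of the 18 in the table had at most 3 fragments in each library, and 2 of these were at 0 in all. Methylation and alleles were not measured here, and the part of cell composition in these values was not tested.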
